A study of Homo sapiens with 28 samples.

Results

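Residual HCT116 xenografts from mice treated with the glutaminase inhibitor Telaglenastat were compared with xenografts from Control mice. HCT116 cells are a widely used line from a human colorectal carcinoma. The comparison covers 7 of the 28 RNA-seq libraries of the series, 4 from Telaglenastat tumors and 3 from Control tumors, chosen by their treatment labels, and all 58278 genes of the count table were considered. NOD SCID mice, injected under the skin at 5 weeks of age, received Telaglenastat by mouth at 150 mg/kg/day or vehicle for 23 days. The other tumors came from mice given Palbociclib, an inhibitor of the cell cycle kinases CDK4 and CDK6, at 100 mg/kg/day (5 tumors) or both drugs (the Combination, 4 tumors), and 12 monolayer cultures were explanted from residual tumors and grown without drugs, 3 for each treatment. NOD SCID mice lack B and T lymphocytes but keep fibroblasts, vessels and myeloid cells, so each tumor held human cancer cells and mouse host cells, and whether reads of mouse origin were removed before counting is not given in the sources used here. All samples derive from 1 cell line.

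Glutaminase converts glutamine to glutamate inside mitochondria. Glutamate then feeds the tricarboxylic acid (TCA) cycle as 2-oxoglutarate and supplies nitrogen and glutathione, while many amino acid shortages raise the transcription factor ATF4 and lower signaling by the mTORC1 kinase, which sets the output of ribosomal protein synthesis. Telaglenastat blocks the enzyme itself.

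The total of reads counted on genes ran from 7539298 to 8849414 in Control tumors and from 6463239 to 6853368 in Telaglenastat tumors, and 14848 genes had enough counts to be tested. In the counts as deposited, normalised for library size (CPM), 4237 genes were lower and 3352 higher in Telaglenastat tumors, which are 28.5% and 22.6% of the genes tested (edgeR's quasi-likelihood test, Benjamini-Hochberg adjusted p under 0.05, as everywhere in this text). The direction followed GC content, the share of G and C bases in a gene's exons. In the lowest of 10 bins of genes by GC content (27.8% to 38.8%) the median log2 fold change was 0.41, with 964 of 1481 genes higher and 2 lower. In the highest bin (60.6% to 73.8%) the median was -1.55, with 1234 of 1480 genes lower and 5 higher. Fold changes therefore had to be read against genes of like GC content.

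**Figure D1:**
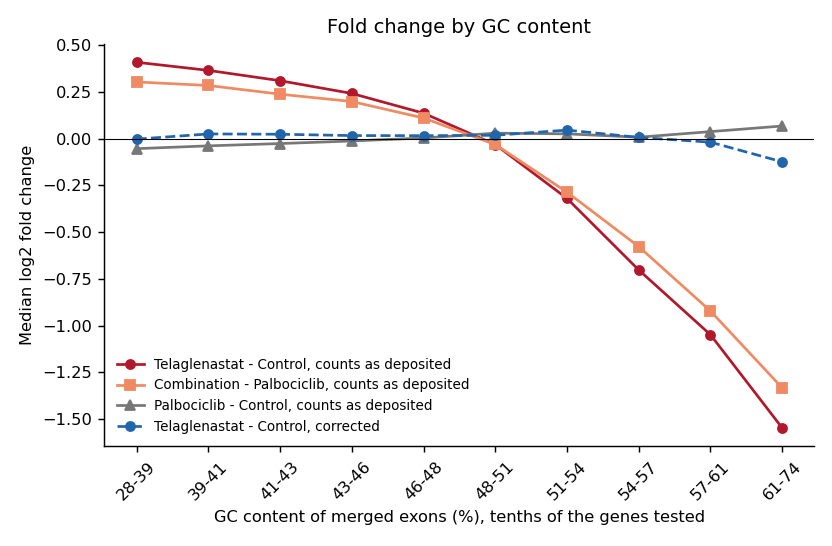
Median log2 fold change (vertical axis) in 10 bins of genes ordered by GC content of their merged exons (horizontal axis, percent). The medians of Telaglenastat against Control run from 0.41 to -1.55 and those of the Combination against Palbociclib from 0.30 to -1.33, both on counts as deposited, while Palbociclib against Control stays between -0.05 and 0.07 and the corrected Telaglenastat values stay between -0.12 and 0.05.

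The tilt separated every Telaglenastat tumor from every Control tumor. When each library's log2 CPM was set against the mean of all tumors, 1 SD more GC content went with a slope of 0.255 ± 0.00652 log2 CPM over the 3 Control tumors (mean ± SD). Over the 4 Telaglenastat tumors the slope was -0.341 ± 0.0358. It was 0.287 ± 0.107 (SD, n = 5) in Palbociclib and -0.209 ± 0.056 (SD, n = 4) in Combination tumors, so the tumors with and without Telaglenastat lay on different sides of 0. No label names a sequencing or preparation batch, and treatment and tilt cannot be told apart in these libraries. A second fit therefore removed, in each library, the trend of counts on GC content and exon length ("corrected"). It called 1259 genes lower and 932 higher (8.51% and 6.30% of 14800 genes tested), with 254 and 146 of them changed at least 2-fold. Of the 4237 and 3352 genes called as deposited, 1086 lower and 255 higher ones were also called in the same direction after correction. They are 7.34% and 1.72% of the 14800 genes tested, and "in both fits" below refers to these genes. Without Control tumor 2 these counts were 772 and 143. With no filter on low counts they were 2191 and 1419, of which 2156 and 1400 were genes that the filter keeps, so that the balance of falls and rises depends on the filter. This double criterion counts falls of GC-rich genes more readily than rises, since 230 genes called higher after correction were called lower as deposited and a further 447 were not called. Genes lower in both fits were 2 of 1481 in the lowest GC bin and 231 of 1480 in the highest. The 7.34% of all genes is therefore a loose yardstick for lists of other GC content. CPM did not overlap between the groups for 29.6% of all genes with Telaglenastat tumors below and 24.2% with them above.

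Many genes of ribosomes and mitochondrial respiration, the longest lists examined, fell. Of 78 tested genes for cytosolic ribosomal proteins, 35 were lower and 1 was higher in both fits, against 7.34% and 1.72% of all genes, and their median log2 fold change was -0.42 as deposited and -0.30 corrected, where all genes had medians of 0.03 and 0.01. RPS9, a small-subunit protein (chromosome 19, 54200742 to 54249003 on GRCh38), measured 279, 311 and 324 CPM in the Control tumors and 58.5, 58.2, 51.8 and 52.1 CPM in the Telaglenastat tumors. The corrected log2 fold change was -1.74 ± 0.10 (SE, adjusted p = 1.7e-09, edgeR). RPLP1, a protein of the ribosomal stalk (chromosome 15, 69452784 to 69456194), measured 349, 409.6 and 374 CPM in Control and 148, 159.9, 132 and 158 CPM in Telaglenastat tumors, a corrected log2 fold change of -1.38 ± 0.12. RPLP1 has a GC content of 48.2%, where the tilt is close to 0, and its change as deposited was -1.34. RPS26 (chromosome 12, 56041351 to 56044697) stood at 186, 195 and 181 CPM in Control and at 72.2, 68.7, 50.9 and 68.2 CPM in Telaglenastat tumors. RPL22 went the other way, from 365, 378 and 390.1 to 482, 511, 481 and 463 CPM, with a corrected log2 fold change of 0.26 ± 0.08 (adjusted p = 0.028, edgeR), a call lost after correction in 8 of 18 alternatives. Many ribosomal protein genes have near-identical processed pseudogenes, so reads may have been divided between copies and single values are uncertain, and RPL22 also overlaps another gene on its strand. In Combination against Palbociclib tumors 32 of the genes were lower and 5 higher in both fits, with a corrected median of -0.15. In cultures, without the drugs, the list's corrected median was 0.33 (Telaglenastat against Control).

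Ribosomal protein mRNAs typically begin with a C followed by an unbroken stretch of C and T bases, the terminal oligopyrimidine tract, through which mTORC1 controls their translation. The start sites are shown because the tract is what the ribosomal protein group is best known to share. Each line holds 15 bases before and 15 from the RefSeq start (GRCh38.p14), with the tract in capitals where a C at the start is followed by at least 5 bases that are each C or T.
RPS9, chr19:54200843-54200872, plus strand: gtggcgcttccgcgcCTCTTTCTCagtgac
RPLP1, chr15:69452803-69452832, plus strand: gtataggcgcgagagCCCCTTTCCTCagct
RPL22, chr1:6199581-6199610, minus strand: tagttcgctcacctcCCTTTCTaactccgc
RPS26, chr12:56041903-56041932, plus strand: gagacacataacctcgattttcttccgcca
COX4I1, chr16:85799680-85799709, plus strand: cggcgcggccttgctCTCTTCCggtcgcgg

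RPS9 and RPLP1 fell with a tract, RPS26 fell with none at its annotated start, and RPL22, whose call depends on the processing, rose with one. Promoters were found for 62 of the 78 ribosomal protein genes, and 45 of these genes (72.6%) had a tract exactly at a RefSeq start. Counted by promoter, 45 of 77 ribosomal protein promoters (58.4%) had one, against 1062 of all 35116 promoters of the same length (3.02%). The tract was present in 21 of 30 ribosomal protein genes lower in both fits and in 23 of 31 not called in both fits. The shares were thus 70% and 74.2%. This search was chosen after the values had been seen, and a RefSeq start need not be the start used in these tumors.

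The nuclear-encoded subunits of the respiratory chain, which make most of the protein of complexes I to V, were lower for 22 and higher for 1 of 77 genes in both fits, with a corrected median of -0.19. These are 28.6% and 1.3%, against 7.34% and 1.72% of all genes. In the GC bin of the list's median (48.36%), 151 of 1479 genes were lower in both fits. COX4I1, a subunit of cytochrome c oxidase (chromosome 16, 85798633 to 85807044), measured 242, 277 and 247 CPM in Control and 84.5, 96.5, 69.2 and 88.8 CPM in Telaglenastat tumors. The lowest Control value was over the highest Telaglenastat value, and the corrected log2 fold change was -1.51 ± 0.11 (SE, adjusted p = 2.8e-08, edgeR). ATP5G2, which encodes the c ring of ATP synthase, fell by 1.45 ± 0.11 on that scale, and NDUFA11, a complex I subunit, fell by 1.62 ± 0.22. Both have exons that overlap another gene on the same strand. NDUFB3, a complex I subunit too, rose by 0.35 ± 0.10, a call lost after correction in 7 of 18 alternatives. The 13 protein genes of mitochondrial DNA had no call in either direction, with a corrected median of 0.08. The share of all counts on mitochondrial genes was 6.78% to 7.22% in Control tumors and 8.91% to 9.07% in Telaglenastat tumors 1, 3 and 4, but 6.23% in tumor 2.

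Without genes whose exons overlap another gene, 15 in place of 42 ribosomal protein genes and 12 in place of 32 respiratory chain genes were called lower after correction, with medians of -0.34 and -0.14.

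Among the 22 TCA cycle genes, 6 were lower (27.3%, against 7.34% of all genes) and none higher in both fits, with a corrected median of -0.17. In the GC bin of the list's median (46.61%), 79 of 1481 genes were lower in both fits. IDH3G, a regulatory subunit of the NAD-dependent isocitrate dehydrogenase (chromosome X, 153785766 to 153794523), measured 44.4, 51.2 and 43.8 CPM in Control and 5.61, 11.8, 6.51 and 5.79 CPM in Telaglenastat tumors, with tumor 2 the highest of the treated group. Its log2 fold change of -2.63 as deposited became -1.44 ± 0.18 after correction (adjusted p = 1.9e-05, edgeR), since its GC content is 60.5%. OGDH, the E1 subunit of the enzyme that consumes 2-oxoglutarate, fell by 0.52 ± 0.11 on the corrected log2 scale. SDHA of succinate dehydrogenase fell by 0.63 ± 0.10. MDH2 and DLST, malate dehydrogenase and the E2 subunit beside OGDH, were also lower in both fits.

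Sugar metabolism gave the same direction. In both fits 8 of 24 glycolysis genes (33.3%) and 4 of 14 pentose phosphate genes (28.6%) were lower, against 7.34% of all genes. None was higher in either list. The glycolysis median was -0.72 as deposited and -0.14 corrected, and the pentose phosphate median was -0.18 corrected. In the GC bins of the lists' medians (54.45% and 49.89%), 210 of 1480 and 151 of 1479 genes were lower in both fits. PKM, pyruvate kinase, measured 2459, 2769 and 2678 CPM in Control and 1305, 1323, 1201 and 1257 CPM in Telaglenastat tumors, a corrected log2 fold change of -0.49 ± 0.07 (SE). ALDOA, aldolase A, fell by 1.24 ± 0.14 and shares exons with another gene. TKT and TALDO1, of the non-oxidative branch of the pentose phosphate pathway, had corrected log2 fold changes of -0.72 ± 0.09 and -0.52 ± 0.08. Without genes whose exons overlap another gene, 3 of the glycolysis genes called lower after correction were left of 10, and the list's corrected median was 0.01, so its direction rests on overlapping genes.

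Cholesterol synthesis genes were lower for 7 of 25 members in both fits (28%, against 7.34% of all genes) and for 11 after correction. None was higher, and the corrected median was -0.27. In the GC bin of the list's median (50.6%), 151 of 1479 genes were lower in both fits. EBP, a sterol isomerase, measured 52.1, 64.3 and 60 CPM in Control and 17.9, 20.9, 20.3 and 16.2 CPM in Telaglenastat tumors, without overlap. Its corrected log2 fold change was -1.15 ± 0.16 (SE, adjusted p = 3.7e-05, edgeR). MVD and LSS, which act before and at the formation of the sterol ring, had -1.08 ± 0.19 and -0.93 ± 0.12. The list's median was -0.50 in Palbociclib against Control tumors and 0.04 in Combination against Palbociclib tumors.

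**Figure D2:**
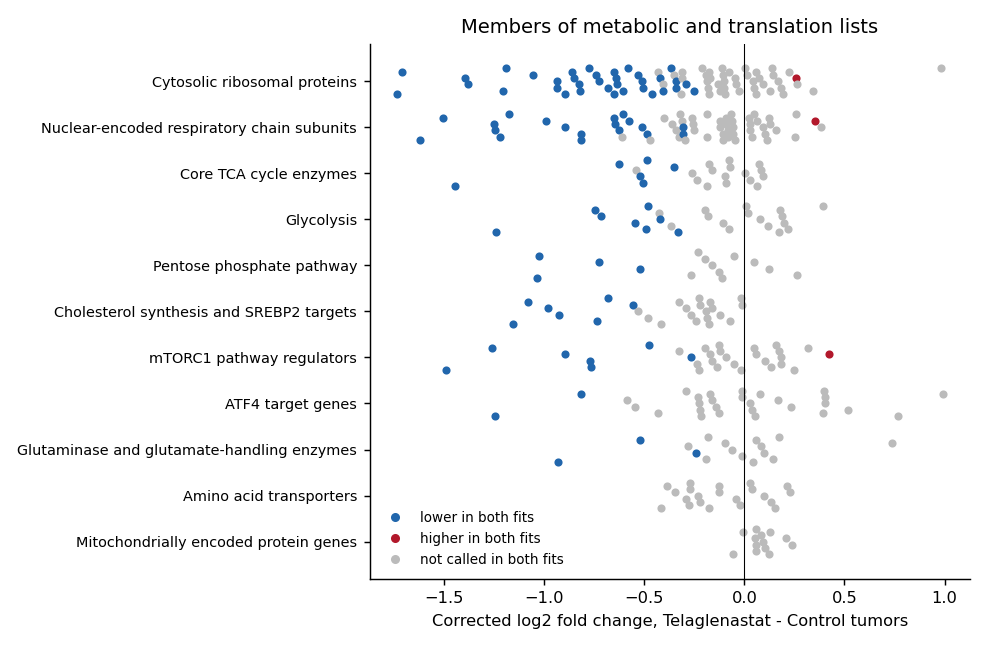
Each point is a gene of 11 lists, placed by its corrected log2 fold change in Telaglenastat against Control tumors (horizontal axis), blue if lower, red if higher and grey if not called in both fits. Blue points fill the left of the ribosomal protein (35), respiratory chain (22), glycolysis (8) and cholesterol (7) rows, while the mitochondrially encoded genes and amino acid transporters have none.

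Of the genes nearest to the drug's target, few were called once GC content was taken into account. GLUD1, glutamate dehydrogenase, had log2 fold changes of 0.22 ± 0.08 (SE, adjusted p = 0.030, edgeR) as deposited and 0.04 ± 0.08 (adjusted p = 0.77) corrected. GLUL, which makes glutamine from glutamate, was lower in both fits, with 204, 213 and 197 CPM in Control and 195, 177, 154 and 173 CPM in Telaglenastat tumors and a corrected log2 fold change of -0.24 ± 0.07 (adjusted p = 0.017, edgeR). Of 18 glutaminase and glutamate-handling genes, 3 were lower (GLUL, OGDH and ALDH4A1, which makes glutamate from proline) and none higher in both fits. These 3 are 16.7%, against 7.34% of all genes and 156 of 1480 in the GC bin of the list's median (52.77%). After correction the call was lost in 8 of 17 alternatives for ALDH4A1, 3 of 19 for GLUL and 0 of 19 for OGDH. Without Control tumor 2, 1 gene of this list was called lower after correction. Of 21 amino acid transporter genes none was called in both fits. SLC1A5, the main glutamine importer, fell by 1.52 ± 0.11 as deposited and had a corrected log2 fold change of -0.28 ± 0.10 (adjusted p = 0.065, edgeR), and SLC7A11, which exports glutamate for cystine, had -0.29 ± 0.14 (adjusted p = 0.18). ASNS, asparagine synthetase, had -0.01 ± 0.11 and MYC 0.14 ± 0.11 on that scale.

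ATF4 itself (chromosome 22, 39519695 to 39522685) had overlapping CPM in both groups while genes of like GC content fell. It measured 286, 299 and 248 CPM in Control and 229.7, 269, 245 and 250.1 CPM in Telaglenastat tumors, with a log2 fold change of -0.16 ± 0.07 (SE, adjusted p = 0.077, edgeR) as deposited and 0.77 ± 0.10 (adjusted p = 1.9e-05) corrected at a GC content of 57.6%. Of 29 known targets of ATF4 tested, 2 were lower (6.9%, against 7.34% of all genes) and none higher in both fits, and the corrected median was -0.01. The lower genes were PHGDH, the first enzyme of serine synthesis, with 50.2, 55.5 and 50.1 CPM in Control and 25, 14.9, 14.2 and 17.4 CPM in Telaglenastat tumors (corrected -1.24 ± 0.19, adjusted p = 0.00013), and PCK2, mitochondrial phosphoenolpyruvate carboxykinase (corrected -0.82 ± 0.17). Higher after correction only were ATF4, DDIT4, an mTORC1 inhibitor, PPP1R15A and CEBPB, the last with 20.9, 25.3 and 23.2 CPM in Control and 13.3, 13.3, 15.6 and 16.3 CPM in Telaglenastat tumors, a fall as deposited. GC-rich genes with 1 or 2 exons were called higher after correction more often than others (24.7% against 12% at a GC content of 55% to 60%). How far this enters these 4 rises was not tested. Among 31 mTORC1 pathway regulators 7 were lower in both fits (22.6%, against 7.34% of all genes) and 1 higher (3.23%, against 1.72%). Without genes whose exons overlap another gene, 2 in place of 7 were called lower after correction. LAMTOR4, part of the complex that anchors mTORC1 to lysosomes, fell from 15, 13.1 and 13.5 to 1.97, 1.95, 2.58 and 4.31 CPM, and SESN3, a stress-induced inhibitor of mTORC1, rose by 0.42 ± 0.13 on the corrected log2 scale, a call lost in 10 of 18 alternatives.

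**Figure D3:**
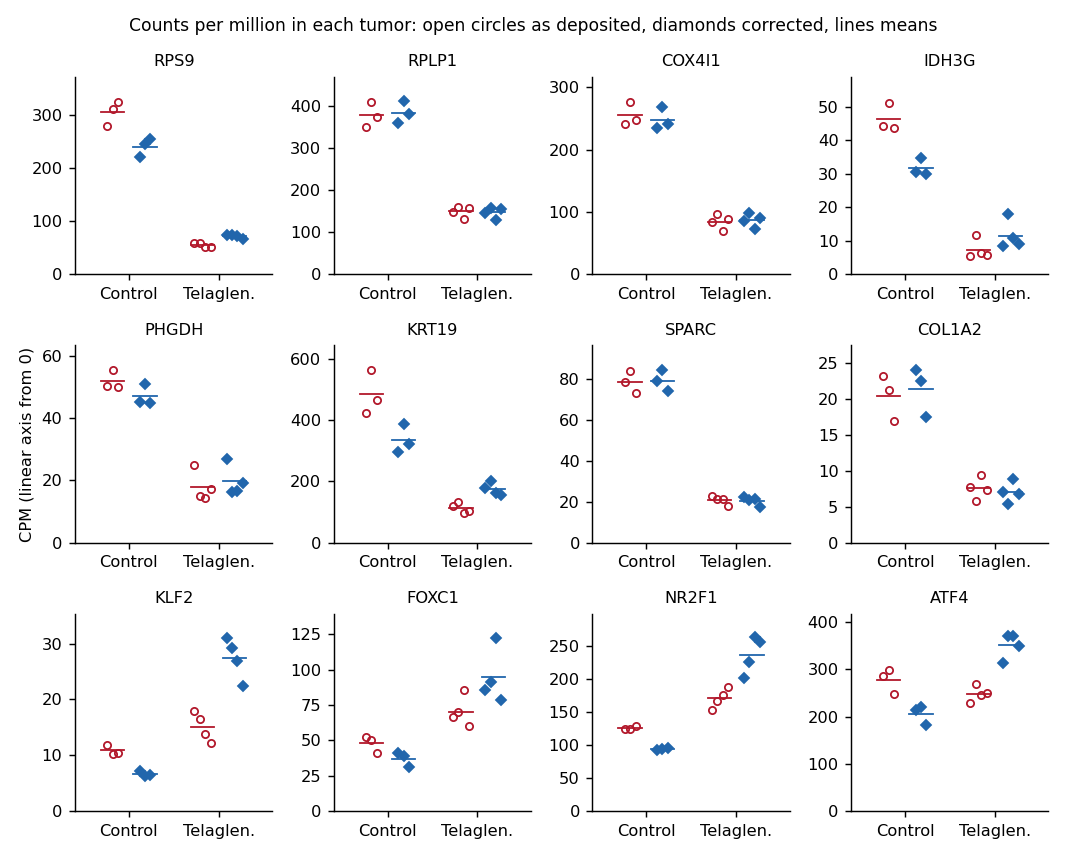
CPM in each Control and Telaglenastat tumor for 12 genes, on linear axes from 0. Open circles are counts as deposited, filled diamonds are corrected CPM and lines are group means (3 and 4 tumors). RPS9, RPLP1, COX4I1, IDH3G, PHGDH, KRT19, SPARC and COL1A2 are lower on both scales, KLF2, FOXC1 and NR2F1 are higher on both, and ATF4 overlaps between the groups as deposited but is higher after correction.

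The 15 largest rises in both fits were chosen among protein-coding genes whose CPM did not overlap between the groups. They held several transcription factors. At a GC content of 55% to 60%, 24.7% of genes with 1 or 2 exons were higher after correction, against 12% of genes with more. At 60% or over the shares were 28.1% and 9.63%. How far this shift of a gene class enters the corrected values below was not tested. NR2F1, a nuclear receptor (chromosome 5, 93583224 to 93594615), measured 124, 124 and 128 CPM in Control and 153, 167, 176 and 189 CPM in Telaglenastat tumors. Its log2 fold change was 0.45 ± 0.08 as deposited and 1.33 ± 0.10 (SE, adjusted p = 3.8e-08, edgeR) corrected. FOXC1, a forkhead factor (chromosome 6, 1609972 to 1613897), rose from 52.4, 50.5 and 40.7 to 66.4, 69.8, 85.6 and 59.8 CPM, and KLF2, a Krüppel-like factor, from 11.9, 10.3 and 10.4 to 17.9, 16.5, 13.8 and 12.2 CPM. Both gave larger values after correction, 1.35 ± 0.14 and 2.05 ± 0.19. KLF9 and HOXD8, 2 more transcription factors, had corrected log2 fold changes of 0.94 ± 0.26 and 1.39 ± 0.27. The largest corrected value, 4.04 ± 0.64, belonged to CAPN12, a calpain with 2.13, 1.55 and 2.06 CPM in Control and 7.88, 3.34, 26.2 and 13.8 CPM in Telaglenastat tumors, which spread widely. EPHA7, an ephrin receptor, had under 1 CPM in each Control tumor and 3.64, 2.64, 6.67 and 7.42 CPM in Telaglenastat tumors. The other members of the 15 were TRNP1, AC093323.3, CR2, GOLGA6L4, DNAAF2, NOA1, SLC25A15 and PIGV.

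The 22 immediate early genes, which respond to signals and stress within minutes, had a median of -0.44 as deposited and 0.24 corrected, or -0.01 corrected with no filter on low counts. After correction 5 were higher and 3 lower. In both fits 1 (KLF2) was higher (4.55%, against 1.72% of all genes) and 3 lower (13.6%, against 7.34%). In the GC bin of the list's median (56.75%), 210 of 1480 genes were lower in both fits. JUND, with a GC content of 69.7%, measured 35.2, 53.8 and 42.5 CPM in Control and 41.5, 48.9, 57.9 and 50.6 CPM in Telaglenastat tumors, ranges that overlap, and its corrected log2 fold change was 2.08 ± 0.20 (SE, adjusted p = 8.0e-07, edgeR). KLF4 likewise had 0.05 ± 0.12 as deposited and 1.04 ± 0.15 corrected. How far the shift of GC-rich genes with few exons enters these corrected values was not tested. NR4A1 and HSPA1A, whose reads may be divided with a near-identical copy, fell in both fits, NR4A1 from 7.84, 11.9 and 10.6 to 1.97, 1.11, 1.21 and 1.78 CPM.

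The 15 largest falls in both fits were POTEF, SPARC, ELOB, RPS9, RPS26, SDSL, PLPP2, SF3B5, PRF1, CTU2, DGCR6L, COL1A2, G6PC3, NR4A1 and UBE2S. Like the rises, they were chosen among genes whose CPM did not overlap between the groups. ELOB, an adaptor of ubiquitin ligases, measured 18.9, 21 and 16.1 CPM in Control and 3.49, 1.39, 1.67 and 1.78 CPM in Telaglenastat tumors. SF3B5, a small splicing factor, and UBE2S, a ubiquitin-conjugating enzyme of the anaphase-promoting complex, had corrected log2 fold changes of -1.70 ± 0.20 and -1.55 ± 0.17. POTEF shares much sequence with actin genes, so its value is uncertain. Of 41 DNA replication genes 6 (14.6%, against 7.34% of all genes) were lower in both fits (MCM5 with a corrected log2 fold change of -1.12 ± 0.13 and LIG1 with -0.76 ± 0.10), of 42 mitosis genes 2 (4.76%) were lower, and none of either list was higher. The lists' median GC content was 50.6% and 44.0%, in bins where 151 of 1479 and 29 of 1479 genes were lower in both fits.

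Of 23 epithelial adhesion genes 7 (30.4%, against 7.34% of all genes) were lower and 1 (4.35%, against 1.72%) higher in both fits. The list's corrected median was -0.20. In the GC bin of its median GC content (54.39%), 210 of 1480 genes were lower in both fits. KRT19, a simple keratin, fell from 423, 562 and 465 to 120.4, 133, 96.8 and 102 CPM and JUP, plakoglobin, fell by 0.89 ± 0.08 on the corrected log2 scale, while EPCAM rose by 0.21 ± 0.06, a call lost after correction in 7 of 19 alternatives. Of 44 interferon response and antigen presentation genes 8 were lower (18.2%, against 7.34% of all genes) and 3 higher (6.82%, against 1.72%) in both fits. The list's medians were -0.33 as deposited and 0.11 corrected, the latter -0.08 when no filter on low counts was used. In the GC bin of its median GC content (52.1%), 156 of 1480 genes were lower in both fits. ISG15, a ubiquitin-like protein, measured 57.4, 61.2 and 51.5 CPM in Control and 7.73, 5.70, 9.54 and 9.21 CPM in Telaglenastat tumors, a corrected log2 fold change of -1.31 ± 0.18 (SE). IFIT1, an RNA sensor, measured 324, 268 and 312 CPM in Control and 429.6, 449, 475 and 508 CPM in Telaglenastat tumors and rose by 0.33 ± 0.10, as did IFIT2 by 0.45 ± 0.14 and PARP9 by 0.30 ± 0.08. After correction these calls were lost in 8 of 19 alternatives for IFIT1, 7 of 18 for IFIT2 and 4 of 18 for PARP9. The GC content was 63.9% for ISG15 and 42.2% for IFIT1.

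**Figure D4:**
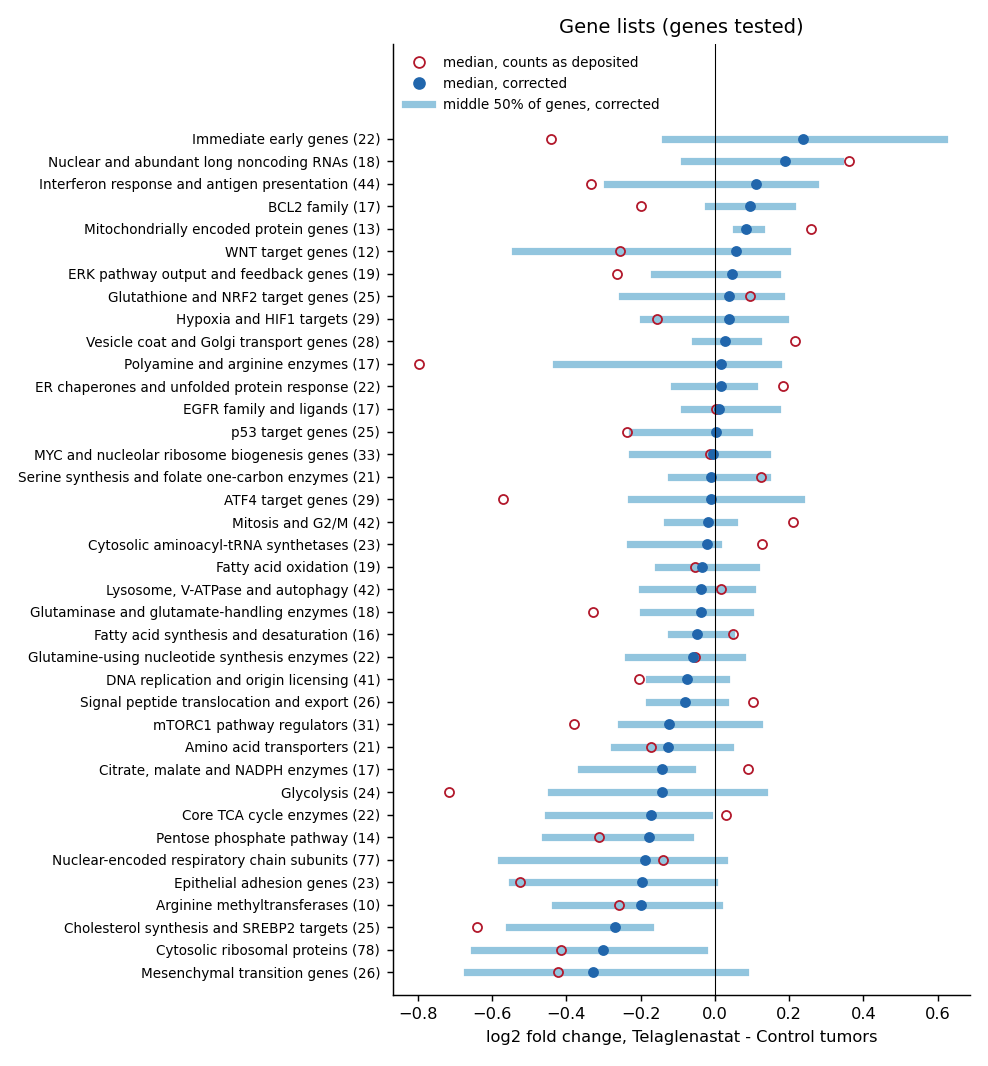
Median log2 fold change of Telaglenastat against Control tumors (horizontal axis) for each list with at least 10 genes tested (number in brackets), as deposited (open red circles) and corrected (blue points), with bars for the middle 50% of the corrected values. Corrected medians run from -0.33 (mesenchymal transition genes) to 0.24 (immediate early genes), and the polyamine, immediate early and glycolysis lists move most between the scales.

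Summed CPM of fibroblast, leukocyte, endothelial, muscle and keratinocyte markers was lower in Telaglenastat tumors, and so was that of colorectal epithelial markers. Summed over 12 fibroblast markers the level was 186 to 228 CPM in Control and 59.5 to 75.6 CPM in Telaglenastat tumors. Of 8 tested, 4 were lower in both fits (50%, against 7.34% of all genes). DCN and LUM, which define fibroblasts, were at 0 in all 7 tumors. COL1A1, a collagen chain (chromosome 17, 50183289 to 50201632), measured 107, 136 and 114 CPM in Control and 28.1, 26.7, 24.9 and 22.7 CPM in Telaglenastat tumors. COL1A2 measured 23.2, 21.2 and 17 against 7.73, 5.84, 9.39 and 7.28 CPM, and SPARC, a matrix glycoprotein (chromosome 5, 151661096 to 151687165), 78.5, 83.9 and 73.3 against 22.7, 21.3, 21.5 and 17.8 CPM. In that order the corrected log2 fold changes were -1.11 ± 0.15, -1.61 ± 0.17 and -1.95 ± 0.16 (SE). COL1A2 and SPARC are among the largest falls, which were chosen among genes whose groups did not overlap. In bulk tumors fewer cells of a type and less RNA per cell cannot be told apart, and the part of host cells in these values was not tested. Markers of macrophages and leukocytes summed to 16.7 to 22 CPM in Control and 4.09 to 11.8 CPM in Telaglenastat tumors, with 5 of 15 at 0 in all 7, skeletal muscle markers to 38.6 to 105 and 16.5 to 28.2 CPM, keratinocyte markers to 50 to 94.1 and 31.5 to 47.3 CPM and endothelial markers to 6.44 to 10 and 2.12 to 4.54 CPM. These sums are of CPM as deposited, which tilt with GC content. KRT1 and LOR of the keratinocyte list and CDH5 and CLDN5 of the endothelial list were at 0 in all 7 tumors. In both fits 1 of 3 tested leukocyte markers (CD68) was lower, and none of 7 muscle, 3 keratinocyte and 1 endothelial markers tested was called. Markers of red blood cells and adipocytes stayed under 1 CPM. Epithelial markers of the colorectum (KRT8, KRT18 and EPCAM foremost) summed to 2810 to 3360 CPM in Control and 1510 to 1730 CPM in Telaglenastat tumors, and CDX1, an intestinal factor, was at 0. In both fits 3 of 8 tested were lower (37.5%, against 7.34% of all genes) and 1, EPCAM, was higher, with a corrected median of -0.47.

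Tumors with Palbociclib gave a comparison that shares no library with the one above. Combination tumors were set against Palbociclib tumors, and 1023 genes were lower and 364 higher in both fits (6.91% and 2.46%). Of the 1086 genes lower with Telaglenastat alone, 694 (63.9%, and 67.8% of the other list) were called lower there too and none higher. Of the 255 genes higher, 76 (29.8%, and 20.9% of the other list) were called higher and 2 lower. The GC tilt was present in both comparisons, and how far it adds to this overlap was not tested. RPS9, COX4I1, IDH3G and PHGDH were called lower in both fits in both comparisons, with corrected log2 fold changes in Combination tumors of -1.55, -1.19, -1.08 and -1.21.

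**Figure D5:**
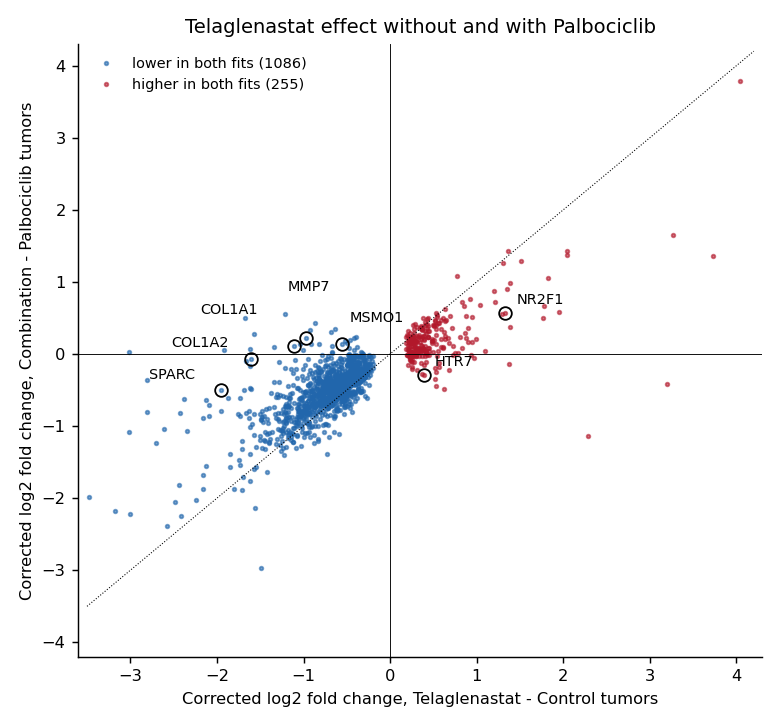
Corrected log2 fold change of Telaglenastat against Control tumors (horizontal axis) and of Combination against Palbociclib tumors (vertical axis) for the 1086 genes lower (blue) and 255 higher (red) in both fits, with equality as a dotted line, where 41 genes, ISY1-RAB43 among them, lie outside the axes. Circled genes differ between the comparisons after correction, and SPARC, COL1A1, COL1A2, MMP7 and MSMO1 lie between -0.50 and 0.22 on the vertical axis against -1.95 to -0.56 on the horizontal one.

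A direct test of the difference between these effects (interaction) called 2 genes lower and 6 higher after correction among 14800, with 564 and 636 at an unadjusted p under 0.05. The matrix genes made up part of them. SPARC fell by 1.95 without Palbociclib and by 0.50 with it, a difference of 1.45 (adjusted p = 0.0039, edgeR), with 60.1 to 83.4 CPM in Palbociclib and 40.8 to 73.6 CPM in Combination tumors. COL1A2 had -1.61 and -0.07 (difference 1.54, adjusted p = 0.0052) and COL1A1 -1.11 and 0.11 (difference 1.22, adjusted p = 0.010). MSMO1, a sterol oxidase, had -0.56 and 0.14 (difference 0.70, adjusted p = 0.0052), with 88.8 to 111 CPM in Palbociclib and 126 to 148 CPM in Combination tumors. MMP7, a matrix metalloproteinase, had -0.97 and 0.22 (adjusted p = 0.021) and NR2F1 1.33 and 0.56 (adjusted p = 0.021). ISY1-RAB43, a read-through gene at 16.3 to 21.8 CPM in Control tumors and at most 0.139 CPM in Telaglenastat tumors, gave the largest difference, but its exons are those of its neighbours.

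Cultures explanted from Telaglenastat tumors showed no call against Control cultures with edgeR. These libraries were uneven. Against the mean of all cultures, the GC slope was 0.125 ± 0.258 (SD, n = 3) in Telaglenastat and 0.0854 ± 0.136 (SD, n = 3) in Control cultures. The SD was 0.0358 in Telaglenastat tumors. With so few and uneven cultures, a lack of calls does not show that the groups were alike. In 3 cultures a group, edgeR called none of 13665 genes in both fits (0% in each direction), with 410 lower and 488 higher at an unadjusted p under 0.05 as deposited and 492 and 606 corrected, where DESeq2 called 3 and 16 as deposited and 10 and 22 corrected. Of 1035 genes lower in both fits in tumors and tested in cultures, 369 (35.7%) had a negative corrected value in culture (48.5% of all 13665 genes tested in both), with a median of 0.07, where the same genes had a median of -0.67 in tumors. RPS9 had 0.37, COX4I1 0.16 and PHGDH 0.58 in culture on the corrected log2 scale, none of them called. Which tumor each culture came from is not given by the labels.

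Genes that share exons or sequence with a neighbour gave all-or-none counts and are left uninterpreted. There were 5 genes with 0 counts in every Control tumor and at least 20 in every Telaglenastat tumor, 4 of them the MIR1244 copies, whose counts were identical in each library (27, 25, 36 and 20 in Telaglenastat tumors), and 5 with the reverse. Among these NUDT3 had 173, 78 and 120 counts in Control and 0 in all Telaglenastat tumors, while RPS10-NUDT3, which overlaps it, had 437, 607 and 497 against 542, 535, 386 and 500.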

How the data were processed

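Poly(A) RNA from 28 samples (16 residual tumors and 12 cultures) was made into strand-specific libraries with the NEBNext Ultra kit and sequenced, and per the labels CASAVA 1.8 and STAR were used with the hg38 build. The authors deposited 1 table of raw read counts per gene, with no normalization. The annotation release, the strand used in counting and any removal of mouse reads are not given in the sources used here. Groups came from the treatment labels. The paper describes injection of cells on the right flank of the mice, and the labels do not name the mouse of each tumor. The p-values measure the spread between these samples. Total counts per tumor are given with the results, and precision of low genes is limited by them.

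Counts were tested with edgeR 4.0.16 in R 4.3.3 (TMM normalisation, filterByExpr with a minimum count of 10, quasi-likelihood test, Benjamini-Hochberg adjusted p under 0.05) over all 16 tumors in 4 groups, with cultures fitted apart. A second fit added as an offset each library's trend on GC content and log2 length of merged exons (natural splines with 4 df each, robust regression in MASS 7.3.60.0.1). Exons came from GENCODE 29 on GRCh38, which matched 57940 of 58278 IDs, and the unmatched genes held 0.0287% of all counts. DESeq2 1.42.0 was an alternative, and the code was tested on simulated data.

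The members and gene lists were chosen with earlier results of these data known. Genes are named by 4 rules: the 15 largest rises and falls among protein-coding genes called in both fits, whose CPM did not overlap between groups and whose exons did not overlap another gene on the same strand, with a mean of at least 1 log2 CPM; 8 genes chosen by role; up to 4 called members of a list with those that go against it; and up to 5 interaction genes. MMP7, NR2F1 and HTR7 of the interaction test, and the other list members named, were named after their values were seen. Some genes are not reported here.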

Additional observations from a re-analysis of the deposited data

Results flagged for a closer look

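Of 163 sets of 4 Telaglenastat tumors examined, 12 held a tumor whose gap to its nearest neighbour took up most of the range, where chance gives about 1 in 20. Telaglenastat tumor 2 stood apart in genes detected (20431 against 19212 to 19406, gap over range 0.841) and in the share of mitochondrial counts (6.23% against 8.91% to 9.07%, 0.944). It was also the highest tumor for IDH3G (11.8 CPM, 0.854), and ISY1-RAB43 was counted in no other Telaglenastat tumor (0.139 CPM, gap over range 1).

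Single tumors stood apart for other genes. Tumor 1 was lowest for KLF9 (4.55 CPM, 0.848), PCK2 (3.64 CPM, 0.893) and SSR2 (101 CPM, 0.862) and highest for ACAA1 (16.4 CPM, 0.889). Tumor 3 was highest for DGCR6L (2.12 CPM, 0.889) and lowest for ETV4 (6.06 CPM, 0.866), and tumor 4 was highest for ATP5G2 (47.5 CPM, 0.85) and ASL (5.2 CPM, 0.83).

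The effect of Telaglenastat differed by the presence of Palbociclib for 8 genes in the interaction test after correction. The corrected log2 fold change with Palbociclib minus that without it was 6.33 for ISY1-RAB43, 1.45 for SPARC, 1.54 for COL1A2, 1.22 for COL1A1, 1.19 for MMP7, 0.70 for MSMO1, -0.77 for NR2F1 and -0.68 for HTR7, a serotonin receptor gene (edgeR, adjusted p = 0.029 for HTR7, with effects of 0.39 without and -0.30 with Palbociclib).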

How the results depend on the processing

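No named gene past the threshold changed direction under the alternatives tried. Of the lists with a corrected median beyond 0.1, the median changed sign without overlapping genes for glycolysis (0.01) and arginine methyltransferases (0.03), with no filter on low counts for interferon (-0.08), immediate early (-0.01) and citrate, malate and NADPH genes (0.01), and with at least 10 counts in every tumor for histone genes (0.21). Without genes whose exons overlap another gene, 2067 genes were lower and 1545 higher as deposited (1167 and 40 at least 2-fold), 605 and 456 corrected (121 and 64 at least 2-fold) and 531 and 111 in both fits, since fewer genes were tested. With no filter on low counts, 2254 were lower and 1654 higher corrected (903 lower at least 2-fold), 2191 and 1419 in both fits, and 195 higher at least 2-fold as deposited, and the fitted trend spanned 1.02 in place of 1.81 on the log2 scale between its 5th and 95th percentiles over the genes the filter keeps. With at least 10 counts in every tumor, 27 genes were higher at least 2-fold as deposited and 148 lower at least 2-fold corrected, and with protein-coding genes only 61 were higher at least 2-fold as deposited. DESeq2 called 3 and 16 genes lower and higher in cultures as deposited, 10 and 22 corrected, and 23 and 26 for the interaction, and the cause was not tested. With all 28 libraries in 1 fit the counts in both fits were 735 and 177, and the median of all genes as deposited was 0.13. A correction on the GC content and length of the main transcript, chosen after seeing the data, gave 1031 and 239. Of 150 genes named by these rules and called in both fits, 89 kept the call under every alternative (80 of 114 lower and 9 of 36 higher).

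Leaving out 1 library at a time gave 3886 to 4120 lower and 2707 to 3056 higher genes as deposited (2270 to 2434 and 78 to 119 at least 2-fold), 849 to 1149 and 655 to 828 corrected (195 to 269 and 124 to 153 at least 2-fold), and 772 to 999 and 143 to 211 in both fits, the lowest in both fits without Control tumor 2. For Combination against Palbociclib the counts in both fits were 853 to 1120 and 258 to 432. The interaction gave 0 to 3 lower and 4 to 8 higher genes, both lowest without Control tumor 2 and without Telaglenastat tumor 4, with 0 lower also without Control tumor 3, Combination tumor 3 or Combination tumor 4. Cultures gave 0 to 1.

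With the replicate number as a block, 976 genes were lower and 227 higher in both fits (872 and 261 for Combination against Palbociclib, 2 and 5 for the interaction, 0 and 0 in cultures), so no count moved by over 1.5 times. The numbers did not pair the tumors, since deviations of same-numbered Telaglenastat and Control tumors correlated at -0.024 to 0.0121, and tumors share only a number.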

Other observations

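Genes with few exons stood apart among GC-rich genes, a split chosen after the values were seen. Of 12688 protein-coding genes tested, 807 (6.36%) had 1 or 2 exons in their main transcript, against 119 of 862 genes higher after correction (13.8%) and 46 of 1191 lower (3.86%). At a GC content of at least 60%, the 146 genes with 1 or 2 exons had a median log2 fold change of -1.11 as deposited and 0.34 corrected, and the 1475 genes with 3 or more exons -1.53 and -0.17. The corrected medians were 0.32 and -0.14 in Combination against Palbociclib tumors and 0.14 and 0.01 in cultures. No test was run on this split, and its cause was not tested.

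In other gene groups the share lower in both fits was 21.7% for cytosolic aminoacyl-tRNA synthetases, 30% for arginine methyltransferases (3 of 10), 23.5% for polyamine and arginine enzymes (4 of 17), 16% for glutathione genes (4 of 25) and 11.9% for the lysosome and autophagy list (5 of 42), against 7.34% of all genes. In that order the lists had median GC contents of 46.8%, 49.5%, 56.8%, 51.5% and 49.4%. In the GC bins holding the first medians, 79 of 1481, 151 of 1479 and 210 of 1480 genes were lower in both fits. For the glutathione and lysosome lists they were 156 of 1480 and 151 of 1479. Of the 23 synthetase genes 5 were lower and none higher, among them AIMP2, a scaffold protein, and FARSA, a subunit of phenylalanyl-tRNA synthetase (corrected log2 fold changes of -0.95 and -0.63). In the glutathione list FTL, the ferritin light chain, fell by 0.93 and GCLC, the rate-limiting enzyme of glutathione synthesis, rose by 0.24, a call lost after correction in 9 of 18 alternatives. Of 17 BCL2 family genes tested, 1 was lower and 1 higher in both fits (5.88% each, against 7.34% and 1.72% of all genes), with a corrected median of 0.09. BAX, a death effector, fell by 0.81 and MCL1, a survival factor, rose by 0.22, a call lost after correction in 6 of 18. SMS, spermine synthase, rose by 0.54, while ASL of the urea cycle fell by 1.18. MAP1LC3B, an autophagy protein, rose by 0.64, while 5 other genes of the lysosome and autophagy list were lower in both fits.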
